A study of Mus musculus with 12 samples.

Results

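Whole genome bisulfite sequencing of sorted mouse beta cells identified 1299 hypomethylated regions (HMRs) whose DNA methylation was lower in eYFP+ than in eYFP- cells both at postnatal day 2 (P2) and at postnatal day 60 (P60). HMRs are stretches of neighbouring CpG dinucleotides that carry little methylation while the DNA around them is methylated. The 1299 regions, called eYFP+-low HMRs here, were chosen by their measured levels. The HMRs of 4 pools (eYFP- and eYFP+ cells at P2 and at P60) were joined where they overlapped, which gave 84472 autosomal regions, of which 79828 had at least 100 reads on their CpGs in every pool and were eligible. A region was kept if its pooled level, the methylated share of all reads on its CpGs, was at least 5 percentage points lower in eYFP+ cells at each age, which selected 1.63% of the eligible regions.

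The cells came from mice carrying Myt1cCre, Ngn3nCre, Rosa26eYFP and an InsApple allele, in which eYFP marks the descendants of islet progenitors that expressed both Myt1 and Ngn3, and Apple marks the insulin-producing cells of both sorted groups. Each of the 12 libraries combined several sorts of several mice: 2 libraries per subtype at P2 and 4 per subtype at P60. In the GEO labels the reporter is called eGFP and all islet cells are given as the tissue, although beta cells were sorted according to the study. Read counts were available for pools of the libraries of a subtype, so the levels have no replicate error, and the 95% intervals given with them cover counting error only. For a single library the positions of its HMRs were available.

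In the tables the pools are called B1 and B2, which the selection rule takes as eYFP- and eYFP+ cells. Their autosomal CpGs had 25.2 and 25.3 reads on average at P2, and 45.7 and 45.4 at P60, and between 67.6% and 70.1% of these reads were methylated. The P2 libraries held between 57122 and 60968 HMRs and the P60 libraries between 38064 and 49975. Age also went with sequencing submission, because all P2 libraries were deposited in one submission and the P60 libraries in 2 others, so that age, depth and submission cannot be told apart. The number of HMRs on the X chromosome was between 950 and 1016 in the P60 libraries labelled female and between 1241 and 1342 in those labelled male. At P2 it was 1473 in the eYFP- library labelled female and 1027 in the one labelled male, against the order of the labels, and 1001 and 1417 in the eYFP+ libraries labelled female and male. The sexes were therefore compared at P60 only.

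As a check of the cell type, the level within 500 bp of the starts of marker genes was computed in each pool. Over 9 beta cell genes together it was 3.69% and 4.74% in eYFP- and eYFP+ cells at P2 and 1.49% and 1.61% at P60. CpG-rich starts weigh most in this sum, such as those of Mafa with 97 CpGs and Nkx6-1 with 73, and the starts of Pdx1, Nkx6-1 and Mafa, transcription factor genes of beta cells, lay between 0.454% and 1.29% in the 4 pools. The start of Ins1, an insulin gene, had 28.3% and 35.1% at P2 and 7.87% and 5.74% at P60. That of the insulin gene Ins2 had 12.6% and 20.6%, then 4.86% and 5.47%, and that of Ucn3, a peptide gene of mature beta cells, 19.3% and 23.1%, then 14.9% and 13.9%. The summed level was between 4.26% and 6.01% over 6 alpha cell genes and between 4.62% and 5.32% over 3 delta cell genes, so that this level did not separate these types from beta cells. It was between 61.3% and 66.1% over 5 acinar genes, between 69.2% and 73.9% over 4 immune genes, between 38.0% and 41.5% over 4 endothelial genes and between 26.7% and 34.2% over 4 mesenchymal genes. The start of Ppy, the hormone gene of PP cells, lay between 82.9% and 87.3%. Over 3 duct genes the level was 22.9% and 21.2% at P2 and 32.5% and 31.2% at P60. Of all 39 marker starts, 6 were lower in eYFP+ cells at both ages (Slc2a2, Irx1, Ppy, Krt19, Spp1 and Col1a2), with differences of -1.60 and -4.21 points at P2 and P60 for the duct gene Krt19 and of -3.20 and -7.11 points for the duct gene Spp1. The remaining duct gene, Cftr, had differences of 0.48 points at P2 and -0.37 points at P60. None of the 39 was lower by at least 5 points at both ages. The part of other cells in the regions described here was not tested.

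CpG methylation is written by the enzymes Dnmt3a and Dnmt3b and copied at cell division by Dnmt1. Stretches that stay low are promoters, which usually lie in CpG islands, and distal elements such as enhancers, where bound transcription factors and demethylation by Tet enzymes keep the level down. Distal elements differ between cell types far more than promoters do, and their methylation can be passed on through cell division, so that it can carry a record of a cell's origin.

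The following 8 sequences are shown because they are the regions with the largest drop at both ages, and they give an idea of how few CpGs a level rests on. They are those of the reference genome (mm39), with every CG in capitals, and run from the first CpG of the region through the G of its last CpG, except for the region near Prr30, of which the central 300 bases are given. The names are those of the nearest protein-coding start.
Prelid3b chr2:174345644-174345934, plus strand: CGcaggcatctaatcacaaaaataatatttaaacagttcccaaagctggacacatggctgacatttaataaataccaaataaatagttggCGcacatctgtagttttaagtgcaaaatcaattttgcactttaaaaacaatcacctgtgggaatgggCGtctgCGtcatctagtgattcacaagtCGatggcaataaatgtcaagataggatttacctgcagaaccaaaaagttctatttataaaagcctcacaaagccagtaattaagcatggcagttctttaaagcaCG
Tmem30a chr9:79737538-79737773, plus strand: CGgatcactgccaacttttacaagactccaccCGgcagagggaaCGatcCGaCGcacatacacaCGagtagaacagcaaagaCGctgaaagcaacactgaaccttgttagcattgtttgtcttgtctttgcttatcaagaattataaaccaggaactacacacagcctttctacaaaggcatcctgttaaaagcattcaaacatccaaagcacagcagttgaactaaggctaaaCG
Auh chr13:53012565-53012674, plus strand: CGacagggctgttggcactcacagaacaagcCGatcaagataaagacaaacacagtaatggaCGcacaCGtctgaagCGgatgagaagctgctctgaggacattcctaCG
Ptbp2 chr3:119292465-119292595, plus strand: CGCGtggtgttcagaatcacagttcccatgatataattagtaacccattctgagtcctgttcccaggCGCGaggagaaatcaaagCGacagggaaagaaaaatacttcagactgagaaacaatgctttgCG
Csmd3 chr15:48282647-48282662, plus strand: CGtgCGCGCGctcaCG
Klk4 chr7:43547575-43547747, plus strand: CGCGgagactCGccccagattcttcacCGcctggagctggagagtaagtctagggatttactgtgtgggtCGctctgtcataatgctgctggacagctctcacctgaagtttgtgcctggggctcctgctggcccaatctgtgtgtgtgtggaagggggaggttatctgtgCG
Prr30 chr14:101564911-101565210, plus strand: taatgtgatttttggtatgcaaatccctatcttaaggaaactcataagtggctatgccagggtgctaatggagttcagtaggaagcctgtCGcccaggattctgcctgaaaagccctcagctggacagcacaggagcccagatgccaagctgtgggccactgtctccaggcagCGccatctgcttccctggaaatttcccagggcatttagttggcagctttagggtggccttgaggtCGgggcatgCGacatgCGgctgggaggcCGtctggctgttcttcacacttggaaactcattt
Gas2l3 chr10:89286371-89286588, plus strand: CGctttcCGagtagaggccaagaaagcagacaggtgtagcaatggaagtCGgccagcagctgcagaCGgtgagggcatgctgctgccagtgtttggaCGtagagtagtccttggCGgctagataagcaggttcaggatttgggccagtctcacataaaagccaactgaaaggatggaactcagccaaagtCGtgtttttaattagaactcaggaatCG

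Except for that of Csmd3, which is 16 bases long with 5 CpGs in a CG-rich run, the printed sequences hold 6 to 8 CpGs, some of them directly next to each other, as at the start of those of Ptbp2 and Klk4.

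The strongest drop at both ages, as measured by the smaller of the 2 drops, was at chr2:174345644-174345933, an intergenic region 30915 bp upstream of Prelid3b, which encodes a lipid transfer protein of mitochondria. Its level was 32.9% in eYFP- and 17.9% in eYFP+ cells at P2 and 44.3% and 27.3% at P60, on 149, 162, 228 and 341 reads. The difference was -15.0 points at P2 (95% Newcombe interval -24.4 to -5.32) and -17.0 points at P60 (-24.9 to -9.01). Each of its 6 CpGs was lower in eYFP+ cells at both ages. No single library, however, had an HMR there, so the region was called in pooled reads only.

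A region in an intron of Filip1, 36802 bp upstream of Tmem30a, a subunit of the flippases that move phospholipids across membranes, came next with 45.7% and 23.4% at P2 and 57.3% and 42.5% at P60. Both P2 eYFP+ libraries had an HMR in it and none of the other 10 libraries did. In an intron of Auh, an RNA-binding enoyl-CoA hydratase, the levels were 37.8% and 17.8% at P2 and 66.1% and 51.8% at P60. In an intergenic region 284923 bp downstream of the start of Ptbp2, a splicing regulator of neurons, they were 46.3% and 24.4%, then 50% and 36.1%. No single library had an HMR in the region of Auh or in that of Ptbp2. All of these levels were higher at P60 in both subtypes, while the order of the subtypes was set by the selection.

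A second pattern was a level that fell with age in both subtypes. In an intron of Csmd3 it was 50.6% and 36.9% at P2 and 32.5% and 17.6% at P60. The region near Klk4, a kallikrein peptidase, gave 44.4% and 26.7%, then 33.3% and 20%, and had an HMR in 2 of 4 P60 eYFP+ libraries and in no other library. An intronic region of Rgs6, a regulator of G protein signalling, gave 47.9% and 34.2%, then 32.5% and 20.7%. The region upstream of Ppara, a nuclear receptor of fatty acid metabolism, gave 37.9% and 26.2%, then 26.6% and 15.2%, and it too had an HMR in 2 of 4 P60 eYFP+ libraries and in no other.

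The largest single drop among these 20 regions was 35.2 points, in an intron of Igf2r at chr17:12960877-12960939. Igf2r encodes the receptor that carries mannose 6-phosphate proteins and IGF2 to lysosomes, and it is expressed from the maternal allele in most mouse tissues. The 63 bp region with 8 CpGs had levels of 61.0% and 25.8% at P2 and of 57.1% and 45.6% at P60, so the gap of the subtypes was 11.6 points at P60. Its reads were 164, 190, 401 and 281. The region nearest to Chd7, a chromatin remodeller, lay 247847 bp downstream of its start. It had the reverse course, with a gap of 11.4 points at P2 (29.5% and 18.1%) and of 22.0 points at P60 (55.5% and 33.6%). The remaining regions of the 20, among them introns of Scn9a, a sodium channel, and of Asph, an aspartyl hydroxylase, had smaller drops of 11.4 to 13.3 points.

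**Figure D1:**
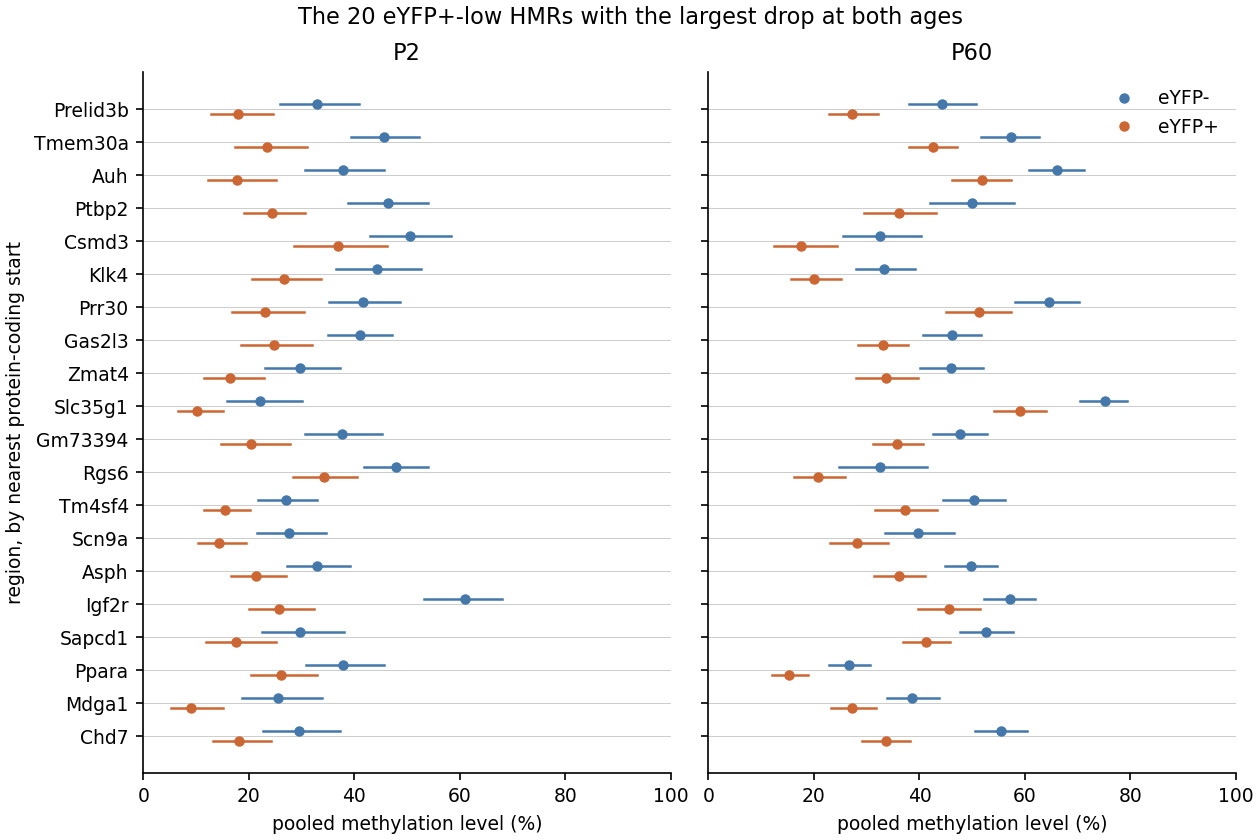
Pooled methylation level (%) at P2 and P60 of the 20 eYFP+-low HMRs with the largest drop, named by the nearest protein-coding start. Points are the level in eYFP- (blue) and eYFP+ (orange) cells and lines are 95% Wilson intervals for counting error. The orange point lies left of the blue one in every row because the regions were selected so; the levels themselves differ widely between regions and, in most, are higher at P60 in both subtypes, with Csmd3, Klk4, Rgs6 and Ppara (lower in both) and Igf2r (lower in eYFP- cells) the exceptions.

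Over all 1299 regions, the median level was 26.5% in eYFP- and 18.1% in eYFP+ cells at P2, and 42.2% and 34.2% at P60. The eligible regions had medians of 11.1% and 11.7% at P2 and of 15.1% in both subtypes at P60, so the eYFP+-low HMRs were partly methylated rather than empty in either subtype. This was not particular to them. Regions past 5 points with opposite signs at the 2 ages had medians of 19.7% and 21.6% at P2 and of 30.5% and 29.6% at P60. Those lower in eYFP- cells at both ages had 16.2% and 25.3%, then 19.8% and 28.3%. The median difference was -7.63 points at P2 and -6.99 points at P60, against 0.18 and -0.11 points over all eligible regions. Most drops were modest. The smaller of the 2 drops was under 6 points in 562 regions (43.3%) and 10 points or more in 57. Near Rad51b, Zc3h12a and Scn3b it was 5.00 points, just inside the limit, while it was 4.999, 4.997 and 4.996 points near Cyth1, Lrmda and Sun1, just outside it, and 1028 regions had a smaller drop of 4 to 5 points.

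Counting error was large beside drops of this size. The regions had median read numbers of 197 and 194 at P2 and of 364 and 362 at P60, and the interval of the difference lay below 0 in 659 regions (50.7%) at P2, in 778 (59.9%) at P60 and in 421 (32.4%) at both ages. In 283 regions it included 0 at each age. Regions past the limit of the rule with opposite signs at P2 and P60 came near this. Their intervals excluded 0 at both ages in 24.5% of those lower, then higher in eYFP+ cells. For those higher, then lower, the share was 27.5%, and for regions lower in eYFP- cells at both ages it was 38.7%. The 32.4% was thus not particular to the eYFP+-low HMRs.

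The rule asks for the same sign at 2 ages, so its count was set beside that of the regions that changed sign. At P2, 7331 eligible regions (9.18%) were at least 5 points lower in eYFP+ cells and 8990 (11.3%) at least 5 points higher, and at P60 the numbers were 6133 (7.68%) and 4329 (5.42%). The sign was kept in 2530 regions, 1299 of them lower in eYFP+ and 1231 lower in eYFP- cells. It switched in 1281 regions, of which 542 went from lower to higher in eYFP+ cells and 739 from higher to lower. The ratio of kept to switched signs was thus 1.98.

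Of the 7331 regions lower in eYFP+ cells at P2, 17.7% were also lower at P60, against 7.68% of all eligible regions, and 7.39% were higher at P60, against 5.42%. Among regions of like mean level over the pools, the shares lower at P60 lay closer together. At a mean level of 20% to under 30% they were 18.3% of the regions lower at P2 and 14.2% of all eligible ones. At 40% or more they were 23.3% and 20.4%. Of the 8990 regions higher at P2, 8.22% were lower at P60 and 13.7% higher. Among the 63507 regions within 5 points at P2, 6.45% were lower at P60. Depth moved with the ratio, which was 1.47 where the shallowest pool had 100 to 149 reads, 2.17 at 150 to 199 reads, 2.36 at 200 to 299, 2.77 from 300 to under 500 and 2.35 at 500 or more. The level moved with the number of regions: 0 of 15505 regions with a mean level under 5% were eYFP+-low HMRs, which the rule nearly precludes, and 219 of 2133 (10.3%) with a mean level of 40% or more.

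**Figure D2:**
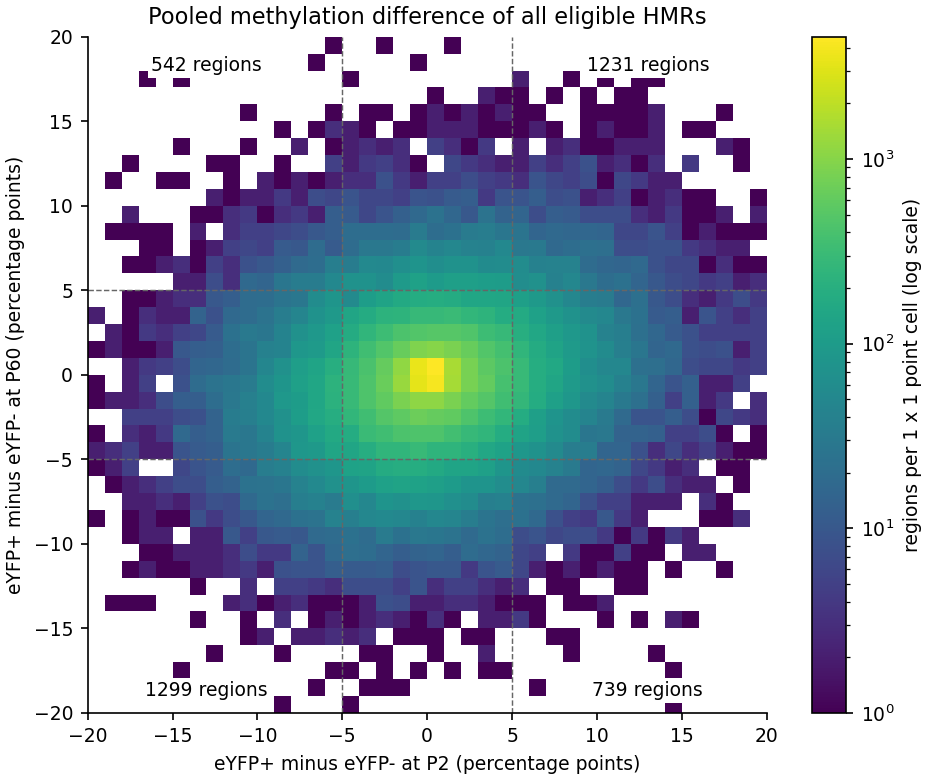
Difference in pooled methylation level, eYFP+ minus eYFP-, in percentage points at P2 (horizontal) and P60 (vertical) for the eligible regions, with colour for the number of regions per cell of 1 by 1 point on a log scale; 125 regions lie outside the frame. Dashed lines mark 5 points, and the counts in the corners are those of the regions past the lines: 1299 at lower left and 1231 at upper right kept their sign, while 542 and 739 switched it.

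Single CpGs within the regions mostly shared the direction that the pooled counts fixed. Of 10910 CpGs with at least 10 reads in each pool, 74.2% were lower in eYFP+ cells at P2, 77.6% at P60 and 58.7% at both ages. In 31 regions with at least 5 such CpGs, every one was lower at both ages, of 1277 regions with that many.

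Outside the regions the difference was smaller. In the CpGs 1 to 500 bp outside, which the rule did not use, the median difference was -0.35 points at P2 and -1.47 points at P60, against 0.39 and -0.62 points around all eligible regions. Farther out, up to 2000 bp, it was 0.36 and -0.75 points, against 0.40 and -0.62. At P60 the level was lower in eYFP+ cells in 859 of these 1296 outer flanks (66.3%), against 63.6% for the eligible regions. The level there was between 76.5% and 78.6% in the 4 pools.

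**Figure D3:**
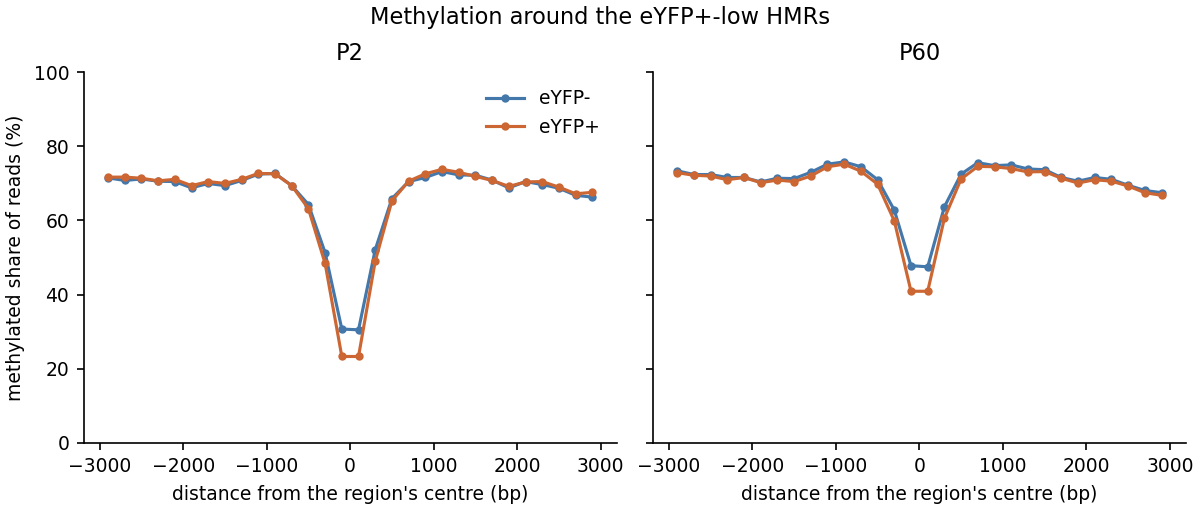
Methylated share of reads (%) in bins of 200 bp, up to 3000 bp from the centre of the eYFP+-low HMRs, at P2 (left) and P60 (right), in eYFP- (blue) and eYFP+ (orange) cells. In the central bins the level was 30.7% and 23.3% at P2 and 47.8% and 40.9% at P60 for the bin left of the centre, and beyond 500 bp the curves nearly coincide.

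Between P2 and P60 most eYFP+-low HMRs gained methylation in both subtypes. Both subtypes rose by at least 10 points in 832 of the 1299 regions (64.0%), against 24.1% of the eligible regions, 31.2% of the sign-switching ones and 26.1% of those lower in eYFP- cells at both ages. In a sign-switching region the rule makes the age changes of the subtypes unlike, so fewer can pass this limit in both. Taken singly, eYFP- cells rose by at least 10 points in 66.2% of the eYFP+-low HMRs, 55.0% of the sign-switching and 29.3% of the eligible regions. For eYFP+ cells the shares were 68.2%, 46.9% and 27.9%. The interval of the age difference lay above 0 in both subtypes in 904 regions (69.6%), against 38.8% of the eligible ones. The median rise was 16.6 points in eYFP- and 17.5 points in eYFP+ cells. In the 832 regions the median levels were 26.3% and 17.9% at P2 and 50.4% and 42.5% at P60, with a median difference of -7.63 and -7.06 points. A gap at each age was a condition of the selection.

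The opposite course was rare. Both subtypes fell by at least 10 points in 40 regions (3.08%, against 1.64% of the eligible ones), from medians of 39.1% and 30.2% to 23.5% and 15.3%. All 40 had an HMR in the P60 eYFP+ pool and 6 had one in the P2 eYFP+ pool. Among them were the regions of Csmd3, Rgs6 and Ppara given above and those of Abcc8, Apc and Adcy6 described with the gene lists. A further 327 regions (25.2%) stayed within 10 points in both subtypes, at medians of 25.1% and 17.9%, then 26.5% and 19.2%.

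How the regions entered bears on this course. Of the 1299 regions, 585 (45.0%) had an HMR in the P2 eYFP+ pool and in none of the other pools, against 5.93% of the eligible regions, and 139 (10.7%) had one in all 4 pools, against 61.2%. The P2 eYFP+ pool had an HMR in 1206 regions (92.8%), the P2 eYFP- pool in 534 (41.1%), the P60 eYFP+ pool in 380 (29.3%) and the P60 eYFP- pool in 191 (14.7%). A region thus mostly entered through a low level at P2, and the rise after P2 is not independent of that.

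Single libraries carry the labels of the samples and were compared next. Of the eYFP+-low HMRs, 24.2% and 25.8% held an HMR in the 2 P2 eYFP- libraries and 61.2% and 48.6% in the 2 P2 eYFP+ libraries. At P60 the values were 6.47%, 8.16%, 4.46% and 7.78% in the eYFP- libraries of replicates 1 to 4 and 9.93%, 14.9%, 8.16% and 15.9% in the eYFP+ libraries. At each replicate number the eYFP+ library was higher, while the highest eYFP- and the lowest eYFP+ library at P60 had the same value, 8.16%. These libraries make up the pools that chose the regions, so the order of the subtypes is a description. For the eligible regions the values lay between 68.1% and 73.4% at P2 and between 45.5% and 58.1% at P60.

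HMRs in more eYFP+ than eYFP- libraries were found in 760 regions (58.5%, against 16.5% of the eligible ones), and in more eYFP- than eYFP+ libraries in 31 (2.39%, against 17.2%). The names B1 and B2 and the labels of the libraries thus gave the same order. Both P2 eYFP+ libraries and neither P2 eYFP- library had an HMR in 163 regions (12.5%, against 1.49% of the eligible regions), and the reverse held in 1 region (1.16% of the eligible ones). At P60, 0 regions had an HMR in all 4 eYFP+ and in no eYFP- library (0.0175% of the eligible ones) and 0 had the reverse (0.0200%). In 298 regions (22.9%, against 12.2% of the eligible regions) no library had an HMR, and in 24 (1.85%, against 38.0%) all 12 had one.

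The share of eYFP+-low HMRs with an HMR in a library was 40% ± 18 (SD, n = 4) at P2 and 9.47% ± 3.99 (SD, n = 8) at P60, a difference of -30.5 points in which the ages did not overlap. For the 57 regions past 10 points it was -20 points and the ages overlapped. The eligible regions fell as well, from 70.5% to 51.9%, a difference of -18.5 points. The gap to the eligible regions went from -45.1 to -45.6 points in the eYFP- libraries and from -15.9 to -39.4 points in the eYFP+ libraries. These values are a description with no p, because 92.8% of the regions had an HMR in the P2 eYFP+ pool, which was made from 2 of the P2 libraries, so that the selection favoured HMRs at P2. Depth and submission differ with age as well.

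At P60 the eYFP+-low HMRs were called in 11.7% ± 4.31 (SD, n = 4) in male and 7.26% ± 2.34 (SD, n = 4) in female libraries (exact permutation test, p = 0.20). That test regrouped the libraries regardless of subtype and replicate number. Within each subtype both male libraries lay above both female ones. The values were 8.16% and 7.78% against 6.47% and 4.46% in eYFP- and 14.9% and 15.9% against 9.93% and 8.16% in eYFP+ libraries. The eligible regions differed in the same direction, with 56.3% in male and 47.6% in female libraries. Relative to these the order was reversed, with -44.6 points in male and -40.4 points in female libraries (exact permutation test, p = 0.20).

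**Figure D4:**
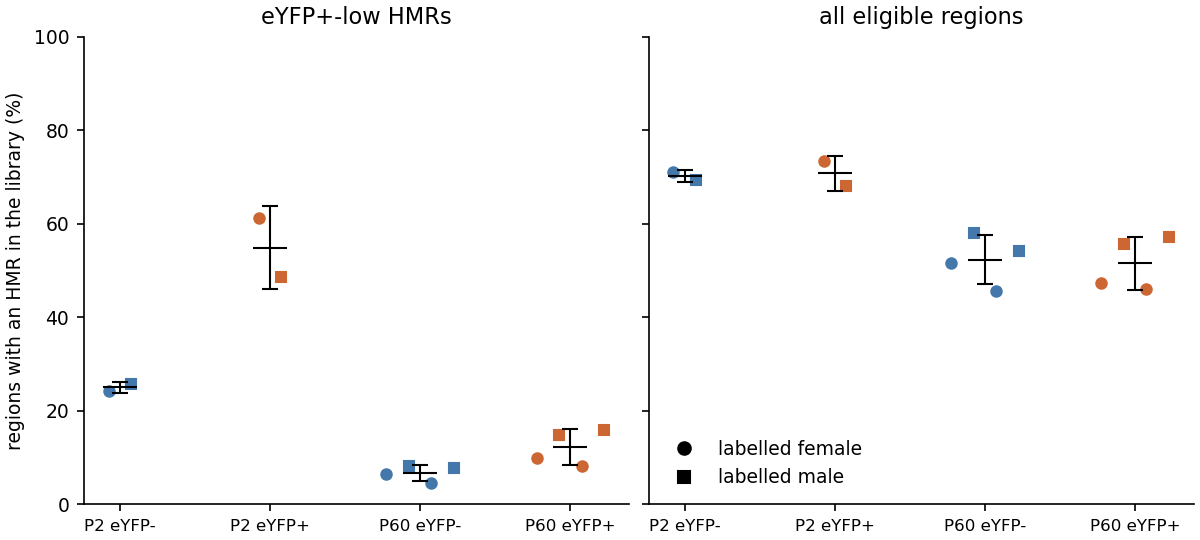
Percent of the eYFP+-low HMRs (left) and of all eligible regions (right) that hold an HMR in each library, by age and subtype. Circles are libraries labelled female, squares those labelled male, and the bar and whiskers are the mean and SD over 2 libraries at P2 and 4 at P60. The P2 eYFP+ libraries stand at 48.6% and 61.2% on the left, and the P60 libraries at 4.46% to 15.9%.

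The median length of the eYFP+-low HMRs was 359 bp with 7 CpGs, against 540 bp and 10 CpGs for the eligible regions, and their CpG density (2.28 per 100 bp, against 2.39) and GC content (49.0%, against 49.4%) were close to those. Their median distance to the nearest protein-coding start was 51807 bp, against 28690 bp. Regions lower in eYFP- cells at both ages had a median length of 297 bp and a median distance of 63306 bp, and sign-switching ones 320 bp and 56152 bp, so neither feature was particular to the eYFP+-low HMRs. Within 1 kb of a start lay 25 regions (1.92%, 95% Wilson interval 1.31% to 2.83%), against 15.5% of the eligible regions. Introns held 559 (43.0%, against 37.4%), coding exons 42 (3.23%, against 2.57%), UTRs 30 (2.31%, against 3.44%) and intergenic DNA 629 (48.4%, against 40.3%). Regions that switched sign were placed in like shares, with 2.03% near a start and 49.4% intergenic. The longest regions were intergenic, 3223 bp nearest to Zfp993, 1929 bp to Sdhaf3 and 1916 bp to Adgrl2. All 19 autosomes held some, from 1.30% of the eligible regions on chromosome 11 to 2.06% on chromosome 12.

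Letters of known binding motifs were counted on both strands in the 200 bp around each centre. The motif of HNF6 (Onecut1), a factor of endocrine progenitors and ducts, searched as TATTGAT, was found in 75 regions (5.77%, interval 4.63% to 7.18%), against 2.62% of the eligible regions, 4.06% of the sign-switching ones and 2.19% of those lower in eYFP- cells at both ages. The core bound by NF1 factors, TTGGCA, was found in 16.4% (14.5% to 18.5%), against 10.8%, 11% and 9.91%. The GATA letters AGATAAG were found in 4.77% (3.74% to 6.07%), against 3.26%, 3.90% and 2.76%. The intervals for HNF6, NF1 and GATA did not include the share of the eligible regions. That for GATA did include the 3.90% of the sign-switching regions, while those for HNF6 and NF1 did not include theirs. These counts carry no test, and a match of letters is no measurement of binding.

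Other motifs were nearer to the eligible regions. FOXA (TGTTTAC) was found in 5.62%, against 5.65%, the E-box of NEUROD1 (CAGATG) in 18.5%, against 18.2%, the homeobox core TAATTA in 8.39%, against 7.62%, and the MAF core TGCTGAC in 3.93%, against 4.87%. The regions lower in eYFP- cells at both ages had other shares, with 26.6% for the E-box, 12.4% for the homeobox core and 7.88% for the MAF core. The RFX core GTTGCCA was found in 4.00%, against 3.25%, AP-1 (TGACTCA) in 4.77%, against 4.11%, the CRE core TGACGTC in 1.00%, against 0.996%, and ETS (CCGGAAG) in 1.54%, against 2.34%. None of the 11 letter strings contains another, although a base can belong to matches of several.

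**Figure D5:**
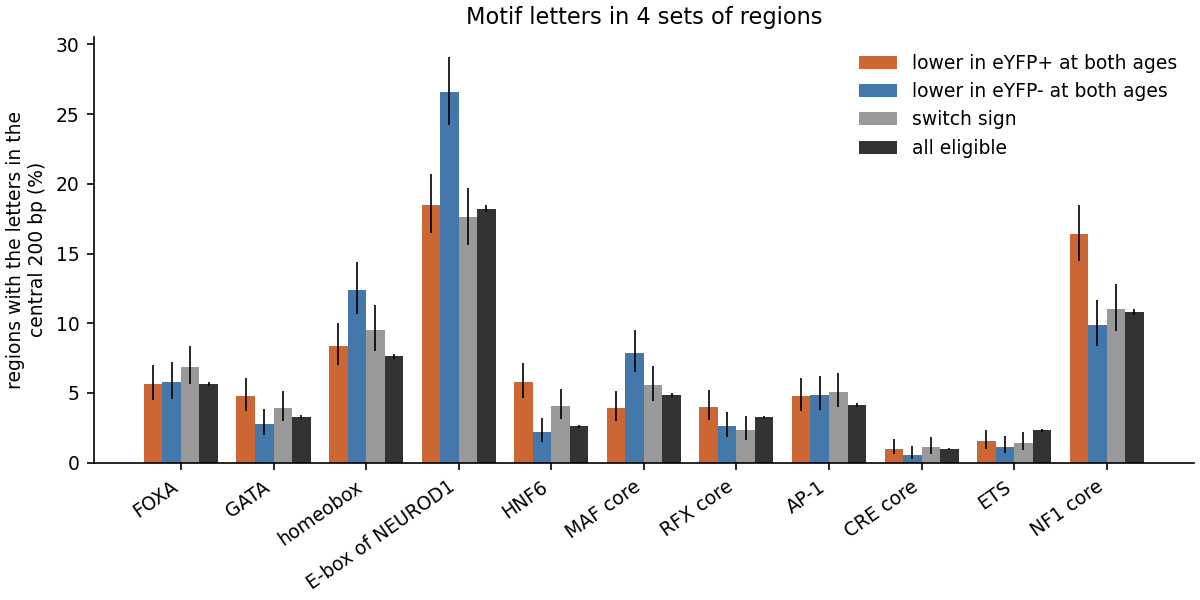
Percent of regions with the letters of each of 11 motifs in the central 200 bp, on either strand, for regions lower in eYFP+ at both ages (orange), lower in eYFP- at both ages (blue), switching sign (grey) and all eligible (black). Whiskers are 95% Wilson intervals. HNF6 stands at 5.77% in orange and 2.19% in blue, and the E-box of NEUROD1 at 18.5% and 26.6%.

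The 1299 regions were nearest to 1152 protein-coding genes, 1030 of which had a single region. Tbx3, a T-box repressor, had the most, with 6 of its 43 eligible regions. The 6 lay between 81948 and 545111 bp upstream of its start, in intergenic DNA, with P2 levels from 24.3% to 35.5% in eYFP- and from 14.2% to 27.2% in eYFP+ cells. Their P60 levels were 44.6% to 72.8% and 37.5% to 66.3%. No region of Tbx3 was lower in eYFP- cells at both ages and 1 switched sign. Adgrl2, Igsf21, Tril and Wwox had 4 regions each, of 71, 30, 21 and 48.

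By gene list, 75 of 3491 eligible regions nearest to a gene of 11 lists were eYFP+-low HMRs (2.15%, against 1.63% of all eligible regions). Of the islet transcription factors 9 of 474 regions were (1.90%), of genes for hormones and granule proteins 2 of 176 (1.14%), of glucose sensing and metabolism 4 of 186 (2.15%), of calcium and potassium channels 8 of 368 (2.17%) and of exocytosis 5 of 278 (1.80%). Wnt signalling had 11 of 497 (2.21%), DNA methylation enzymes 3 of 85 (3.53%), cell cycle 8 of 204 (3.92%), ER stress and the secretory pathway 4 of 208 (1.92%), hormone and nutrient receptors 10 of 397 (2.52%), and cell adhesion and cytoskeleton 12 of 654 (1.83%). The shares rest on few regions each and were not tested. The regions below are named by the nearest protein-coding start, which can be far off, as for Epha4 at 595191 bp.

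Transcription factors with a region included Foxa2, Insm1, Isl1, Onecut1, Rfx3 and Sox9. The region of Foxa2, a pioneer factor of endoderm, lay 97898 bp downstream of its start and had 19.7% and 8.70% at P2 and 38.2% and 26.6% at P60. The region nearest to Rfx3, a factor of endocrine differentiation, lay 180681 bp upstream of its start. Its levels were 21.6% and 13.7%, then 67.6% and 57.3%, a rise of the level with age by far larger than the gap of the subtypes.

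Of the genes of glucose sensing, the region in an intron of Abcc8, the sulfonylurea receptor subunit of the ATP-sensitive potassium channel, fell with age, from 27.5% and 19.3% to 12.9% and 6.82%. The region in an intron of G6pc2, the glucose-6-phosphatase of beta cells, lay 4252 bp upstream of the start used here for that gene. It rose from 30.8% and 22.9% to 47.8% and 40.9%. The one nearest to Pfkp, a phosphofructokinase, lay 249715 bp upstream of its start and gave 16.6% and 10.3%, then 22.5% and 16%. In this last region, all 4 P60 eYFP+ and 2 of 4 P60 eYFP- libraries had an HMR.

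Channel genes with a region included Kcnk3, a background potassium channel, with 25.1% and 18.9%, then 34.9% and 28.0%, and Kcnn3, a calcium-activated potassium channel, with 23.0% and 16%, then 21.8% and 15.5%. The region near Atp2a2, the calcium pump of the ER, gave 21.1% and 13.9%, then 61.6% and 51.7%. Of the exocytosis genes, the region in a coding exon of Unc13a, which primes vesicles for fusion, had 15 CpGs and gave 31.7% and 20.8%, then 62.2% and 55.2%. The region in the UTR of Syt16, a synaptotagmin, gave 17.2% and 10.2%, then 45.2% and 36.4%, and the one in an intron of Nsf, the ATPase that takes apart SNARE complexes, 35.3% and 25%, then 68.6% and 61.7%. Ptprn2, a membrane protein of insulin granules, had 2 regions in introns, at 22.0% and 14.1%, then 56.3% and 48.5%, and at 29.8% and 21.5%, then 52.6% and 45.6%.

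Among the receptors, the region nearest to Glp1r, the receptor of the incretin GLP-1, lay in an intron of Dnah8 and gave 21.9% and 12.2%, then 62.0% and 52.6%. The region near Adcy6, an adenylyl cyclase, fell with age from 41.7% and 34.9% to 29.0% and 15.4%. In the Wnt list, the region in an intron of Apc, a scaffold of the complex that degrades beta-catenin, fell from 47.8% and 37.7% to 27.9% and 18.8%, and all 4 P60 eYFP+ libraries, 1 of 4 P60 eYFP- libraries and no P2 library had an HMR there. The region near Prickle1, a planar polarity protein, gave 35.6% and 25.7%, then 27.1% and 18.7%, and the one near Fzd7, a Wnt receptor, 23.6% and 17.2%, then 40.3% and 31.5%.

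For the cell cycle, the region upstream of Ccnd2, a D-type cyclin that beta cells use to divide, gave 37.8% and 27.1%, then 67.8% and 59.4%. The region nearest to Myc gave 17.1% and 8.70%, then 49.8% and 42.5%. The one near Cdkn1b, the cell cycle inhibitor p27, gave 26.7% and 19.3%, then 21.7% and 14.5%, and 3 of 4 P60 eYFP+ libraries against 1 of 4 P60 eYFP- libraries had an HMR there. Unlike these, Ccnd2 and Myc had no HMR in a P60 library.

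Of the genes of DNA methylation, Dnmt3a, the de novo methyltransferase, had 2 regions, 59698 and 64869 bp downstream of its start. The first, in an exon without coding sequence, gave 18.4% and 11.9%, then 31.1% and 25.7%, and the second, in an intron, 26.4% and 20.4%, then 36.5% and 28.2%. Near Mbd2, which binds methylated CpGs, the level was 26.1% and 14.3%, then 45.6% and 36.9%.

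In the remaining lists, the region in an intron of Mapt, the microtubule protein tau, gave 36.5% and 21.3%, then 62.2% and 52.9%. The one near Epha4, an ephrin receptor, gave 28.6% and 20.3%, then 64.7% and 55.3%, and that near Cd24a, a surface glycoprotein, 30.5% and 23.3%, then 34.6% and 22.0%. Of the secretory pathway, the region nearest to Sel1l, a part of the ER degradation machinery, lay 165605 bp upstream of its start. It gave 23.8% and 17.0%, then 45.6% and 38.9%. The region nearest to Herpud1 of the same machinery, in an intron of Slc12a3, gave 32.2% and 25.9%, then 69.5% and 62.5%. That in an intron of Gbf1, an exchange factor of the Golgi, gave 19.3% and 11.8%, then 27.2% and 21%. The interval of the difference included 0 at both ages for Sel1l, Gbf1, the second region of Ptprn2, the first of Dnmt3a and the one nearest to Zfp993. At P2 alone it included 0 for Abcc8, G6pc2, Kcnk3, Kcnn3, Atp2a2, Syt16, Adcy6, Fzd7, Cdkn1b, Epha4, Cd24a, Herpud1 and the second region of Dnmt3a, and at P60 alone for Myc.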

How the data were processed

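The authors trimmed the reads with Trim Galore 0.6.6, aligned them to mm39 (abismal), and obtained from MethPipe both the HMRs and, with the strands of a CpG merged, its numbers of methylated and unmethylated reads. The deposited counts are pooled per age and subtype, with the 2 pools of an age side by side; the labels also name cutadapt 1.16 and SAMtools 1.5. The score column and the 8 lists of candidate DMRs hold the authors' own comparisons and were not used.

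The members, gene lists and motifs were chosen with earlier results of these data known. HMRs of the 4 pools were joined where they overlapped by at least 1 bp, and levels were read from the deposited counts (Python 3.11.15, numpy 2.4.6, pandas 2.3.3). Intervals are 95% Wilson intervals for a level and Newcombe intervals for a difference. Gene parts and starts came from GENCODE mouse release M39, protein-coding genes. The sexes at P60 were compared over libraries with two-sided exact permutation tests over all regroupings. The same test of the ages was planned but is not given, because the selection favoured HMRs at P2. A simulation checked only that planted drops, larger than most of those found, were recovered in regions with at least 200 reads in each pool. How many unchanged regions would pass the rule was not counted. Named are the 20 regions with the largest smaller drop, up to 3 per gene list and the 3 longest; Tbx3 and other genes with 4 or more regions were named after their counts were seen. Some regions that these rules name are not reported here.

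Replicate numbers were treated as pairs at P60 in the replicate block. The presence of HMRs in same-numbered eYFP+ and eYFP- libraries, centred on the subtype, correlated by 0.139, 0.208, 0.314 and 0.141 across the eligible regions. Libraries of different numbers correlated by 0.016 to 0.242 where the labelled sex was the same and by -0.270 to -0.051 where it was not. The values thus follow sex and do not show that the same number marks a pair. For example, eYFP+ replicate 1 correlated by 0.211 with eYFP- replicate 3, and eYFP+ replicate 4 by 0.242 with eYFP- replicate 2. At P2 the value was 0.015. Alternatives comprised other read, size and length limits, an unweighted mean over CpGs, a cover of 50%, other gene rules and leaving out each library. The repeat share of the regions was not computed.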

Additional observations from a re-analysis of the deposited data

How the results depend on the processing

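Of 79828 eligible regions, 1299 met the rule. At least 200 reads in each pool left 501, a limit of 3 points gave 3990 and one of 10 points 57, and asking for an HMR in all 4 pools left 139. Limits of 50 reads, 200 bp or 5 CpGs, the X chromosome and, added after seeing the data, centring on the median difference gave between 1078 and 1372. An unweighted mean over CpGs gave 1190, of which 882 were shared, 67.9% of the 1299. The ratio of kept to switched signs lay between 1.57 and 2.82 over these settings. Counted with genes of every biotype, 24.2% of the regions were intergenic in place of 48.4%. With regulatory domains by the rule of GREAT, 118 in place of 75 regions belonged to a listed gene, a share of 2.08% in place of 2.15% of the eligible regions of these genes.

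The age differences are given without p, since the selection favoured HMRs at P2, and every setting shares that selection. Leaving out 1 library gave -35.7 to -23.4 points, and each P60 submission alone -30.1 and -30.9 points. Relative to the eligible regions the difference was -12.0 points, with -17.4 to -5.87 points without 1 library, -23.5 points in the eYFP+ and -0.438 points in the eYFP- libraries. The value of -5.87 points is that without P2 eYFP+ replicate 1. The 57 regions past 10 points gave -20 points, with ages that overlapped. The sex difference at P60 ranged from 3.03 to 5.73 points without 1 library. With the replicate block, in which whole replicate numbers were permuted, it was 4.43 points with exact p = 0.333, the smallest the paired libraries allow. The exact permutation test within subtypes, added after seeing the data, gave p = 0.0556, likewise the smallest that test allows. Relative to the eligible regions it was -4.23 points. Levels have no replicate error.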

Other observations

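The region in Igf2r lies 27706 bp downstream of the start of that gene, near the start of Airn, an imprinted transcript that runs against Igf2r. After this was seen, the eligible regions within 2 kb of a start of 21 imprinted genes were listed, and 14 of the genes had 25 such regions. Only the one at Airn was lower in eYFP+ cells by at least 5 points at both ages. At P2, 7 of the 25 were lower and 6 higher in eYFP+ cells by at least 5 points, with differences from -35.8 to 20.8 points. At P60 the numbers were 1 and 3, with differences from -11.6 to 10.2 points. Over all eligible regions 9.18% were lower and 11.3% higher at P2, and 7.68% and 5.42% at P60. The counts of the 25 regions are few and were not tested. At Inpp5f, for example, one region had 57.5% and 21.7% at P2 and 52.2% and 62.4% at P60.

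On the X chromosome, which the rule left out, 21 of 1300 eligible regions (1.62%) were lower in eYFP+ cells at both ages, 32 were lower in eYFP- cells at both ages and 66 switched sign.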
